A study of Mus musculus with 6 samples.

Results

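The Bcl2 family of apoptosis regulators was followed across 3 stages of EpH4, an established mouse mammary epithelial cell line. The 10 genes were taken by symbol from a deposited table of 17428 genes. They comprised 3 pro-survival genes (*Bcl2*, *Bcl2l1* and *Mcl1*), 2 effectors (*Bax* and *Bak1*) and 5 BH3-only genes (*Bcl2l11*, *Bbc3*, *Bmf*, *Bik* and *Bid*). All 10 were in the table, and all 10 were among the 13893 genes with at least 500 sequenced bases in at least 2 libraries, which were tested.

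E cells (epithelial) were EpH4 cells grown without added TGFβ1. M cells (mesenchymal) had received TGFβ1, an inducer of epithelial-to-mesenchymal transition, for 7 days. RE cells (reverted epithelial) were M cells returned to medium without TGFβ1 for another 4 days. All cells shared 1 line, 1 basal medium containing serum and insulin, and no genetic change, and each stage was sequenced as 2 libraries, 6 in all.

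Proteins of this family decide whether the outer mitochondrial membrane stays intact. Pro-survival members such as Bcl-2, Bcl-xL and Mcl-1 hold the effectors Bax and Bak in check, whereas BH3-only proteins carry stress signals by occupying the groove of the pro-survival members or by engaging the effectors directly. Once active, Bax and Bak oligomerise in the outer membrane, cytochrome c is released and caspases are switched on. In the mammary gland the balance between these proteins is best known from involution after weaning and from the clearing of the acinar lumen, and cells that lose matrix contact die through it.

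A short stretch, the BH3 motif, is the part that ties the family together, because it is the segment that docks into the groove. A script searched the longest complete coding transcript of each gene (GENCODE M21, GRCm38) for 6 codons that encode leucine, any 3 residues, glycine or alanine, and aspartate. Each of the 10 genes held exactly 1 such match. Of 21600 mouse protein-coding genes, searched in the basic set of the annotation instead of all transcripts, 18.5% held exactly 1 and 23.9% at least 1. As the motif is what groups the family, this is a description and not a test. The match in *Bcl2l1*, *Bak1* and *Bmf*, the members that passed both thresholds set out below in at least 1 comparison, and in *Bax* as the other effector, is shown 5′ to 3′ on the coding strand, with the 6 codons in capitals.

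Bcl2l1, chr2:152829685-152829744, minus strand, codons 90 to 95 of 233: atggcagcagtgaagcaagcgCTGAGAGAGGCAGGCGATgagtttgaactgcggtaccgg
Bak1, chr17:27022519-27022578, minus strand, codons 76 to 81 of 209: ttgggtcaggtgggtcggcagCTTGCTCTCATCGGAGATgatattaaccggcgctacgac
Bax, chr7:45465985-45466044, minus strand, codons 63 to 68 of 192: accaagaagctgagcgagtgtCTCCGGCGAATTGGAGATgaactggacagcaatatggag
Bmf, chr2:118545088-118545147, minus strand, codons 224 to 229 of 271: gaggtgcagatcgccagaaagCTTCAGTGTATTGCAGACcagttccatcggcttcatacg

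All 4 stretches lie within 1 coding exon. The match is a property of the letters and was found at very different places in the coding sequence, nearer the start in *Bcl2l1*, *Bak1* and *Bax* and near the end in *Bmf*. The deposited values are sums per gene and do not resolve this stretch.

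The measured quantity is coverage, the sum of the sequenced bases that fell on a gene. It is given in ppm, bases per 1e+06 bases of a library scaled by its TMM factor. The 6 libraries held between 35782513 and 47928557 reads' worth of 50 bases, and 3 reads' worth corresponded to between 0.0635 and 0.0781 ppm, a floor that covers counting error only. Every member value lay above it, the lowest being 1.15 ppm for *Bik* in an M library. As a check of the labels, the TGFβ1 target *Mmp9* had a mean of 1.58 ppm in E, 916 ppm in M and 1.62 ppm in RE cells. Keratins *Krt8*, *Krt18*, *Krt7* and *Krt14* and *Cdh1* were well covered, and *Krt19* and *Krt5* stayed at or below 0.478 ppm. In E, M and RE cells mean *Krt8* was 202, 319 and 127 ppm and *Krt14* 269, 711 and 330 ppm. *Krt18* was 745, 569 and 291 ppm and *Krt7* 1409, 1585 and 366 ppm. *Cldn3* (127, 49.8 and 62.1 ppm) and *Cldn7* (124, 33.5 and 49.5 ppm) were lower in M and RE than in E cells. The endothelial marker *Cdh5* was at 0 in both E libraries and at 2.33 and 2.07 ppm in M cells. *Pecam1*, *Kdr* and *Tek* stayed at or below 0.429 ppm. The leukocyte markers *Ptprc* and *Cd3e* were at 0 or near the floor, whereas *Cd68* gave 5.17 to 9.18 ppm and did not pass the test in any comparison. Of 5 fibroblast markers with values, *Thy1* was at 0 in both E and both RE libraries, and the summed level was 70.1 to 70.9 ppm in E, 580 to 679 ppm in M and 378 to 439 ppm in RE cells. The markers in this sum moved differently. Mean *Col1a1* (32.2, 497 and 236 ppm in E, M and RE) and *Col1a2* (19.55, 100.7 and 85.0 ppm) were highest in M cells. Mean *Pdgfra* (18.4, 31.5 and 84.1 ppm) and *Dcn* (0.399, 0.0034 and 2.77 ppm) were highest in RE cells. The part of these marker genes in the results was not tested. The E libraries differed most from each other: over all genes the SD of the log2 difference between replicates was 0.56 in E, 0.32 in M and 0.31 in RE cells.

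A DEG had to differ by more than 2-fold with an adjusted p below 0.01, and a gene changed at any size has an adjusted p below 0.05. Fold changes come from limma on log2(normalized coverage in ppm + 0.1), adjusted by Benjamini-Hochberg over all genes tested, and are positive where the second group named is higher. The 3 comparisons share libraries, so they are not independent of each other.

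Of the 10 genes, 2 were DEGs in E vs. M, where 17% of all genes tested were DEGs. *Bcl2l1* was lower, as 8.39% of all genes were, and *Bmf* higher in M cells, as 8.58% were. A further 4 changed at less than 2-fold or with an adjusted p between the 2 thresholds, so that 6 of 10 changed at any size against 41.4% of all genes. *Bak1* and *Bmf* rose (2 of 10, against 21.5% of all genes), and *Bcl2l1*, *Bax*, *Bbc3* and *Bik* fell (4 of 10, against 19.9%). The E and M libraries did not overlap for 7 of the 10, against 70.6% of all genes. The median log2 fold change of the 10 was -0.11, beside 0.00 for all genes.

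In M vs. RE, 2 of 10 were DEGs against 12.9% of all genes, with *Bcl2l1* higher (8.08% of all genes) and *Bak1* lower (4.79%) in RE cells. The same 2 were the members changed at any size, a class that held 31.5% of all genes, 17% higher and 14.6% lower. Groups did not overlap for 9 members, against 78.1% of all genes, and the median log2 fold change was 0.36, beside -0.02 for all genes. In E vs. RE, *Bmf* was the DEG and was higher, 1 of 10 against 9.37% of all genes (6.2% higher and 3.17% lower). At any size 4 changed against 30.1%, *Mcl1* and *Bmf* being higher (against 17.2%) and *Bcl2l1* and *Bax* lower (against 12.9%) in RE cells, and 7 members did not overlap against 66.7%. Here the median was 0.03, beside 0.01 for all genes. Over all 3 comparisons, 3 of the 10 were a DEG at least once, against 24.2% of all genes, and 7 changed at any size at least once, against 57.4%. These shares are near those of all genes tested, so what follows concerns the individual members.

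**Figure D1:**
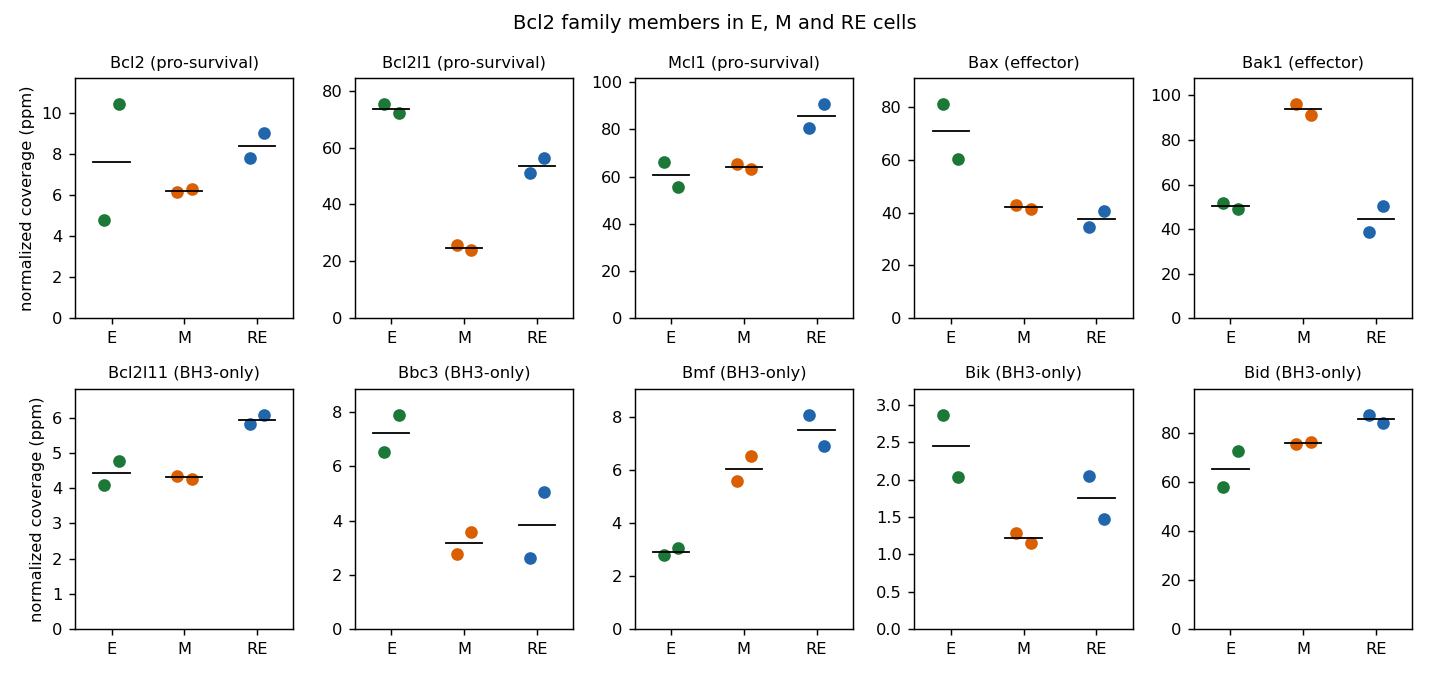
Normalized coverage in ppm of the 10 Bcl2 family genes on linear axes that start at 0, 1 panel per gene; points are the 2 libraries of each stage and lines their means. *Bcl2l1* is lowest and *Bak1* highest in both M libraries, *Bmf* is higher in M and RE than in E cells, and the 2 E libraries of *Bcl2* lie far apart.

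*Bcl2l1* encodes Bcl-xL, which keeps Bax and Bak inactive at the mitochondrion. Its normalized coverage was 75.3 and 72.2 ppm in the E libraries, 25.7 and 24.1 ppm in the M libraries and 50.9 and 56.4 ppm in the RE libraries. The 3 stages did not overlap: E cells were highest, M cells lowest and RE cells in between. The mean fell from 73.7 ± 2.20 ppm (SD, n = 2) in E to 24.9 ± 1.13 ppm in M cells, a log2 fold change of -1.57 (SE 0.13, limma adjusted p = 0.00013), and was 53.7 ± 3.89 ppm in RE cells, 1.11 above M on the log2 scale (limma adjusted p = 0.000787). In these bulk samples, fewer cells with the transcript and less transcript per cell cannot be told apart.

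*Bcl2l1* coverage in RE cells remained below that of E cells, the log2 fold change in E vs. RE being -0.46 (95% CI -0.77 to -0.15, limma adjusted p = 0.0352). The fall in M cells was called in each of 17 alternative fits, with log2 fold changes from -1.87 to -1.52. The rise in M vs. RE kept a log2 fold change of 1.03 to 1.31, but without any 1 of the 4 libraries compared its limma adjusted p was 0.0123 to 0.0177, over the 0.01 threshold. The lower level in RE than in E cells passed 0.05 with all libraries. It also passed without either E library, where the difference between the E replicates does not enter the spread. It did not pass without M1, M2, RE1 or RE2 (log2 fold changes -0.533 to -0.385). Nor did it pass with only the 2 groups compared or with array weights (limma adjusted p = 0.0889 and 0.0916).

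*Mcl1* encodes a short-lived pro-survival protein that binds Bak and several BH3-only proteins. Its normalized coverage was 66.1 and 55.6 ppm in E, 65.2 and 63.3 ppm in M and 80.8 and 90.7 ppm in RE cells. Both RE libraries stood above the other 4, and the E and M libraries overlapped. The log2 fold change was 0.08 in E vs. M (95% CI -0.25 to 0.42, limma adjusted p = 0.665), 0.41 in M vs. RE (limma adjusted p = 0.0616) and 0.50 in E vs. RE (SE 0.14, limma adjusted p = 0.0353). The E vs. RE difference did not pass 0.05 without M1, M2, RE1 or RE2 (log2 fold changes 0.414 to 0.581). Nor did it pass with library totals, only the 2 groups compared or array weights (limma adjusted p = 0.0787, 0.0921 and 0.0664). The M vs. RE rise, however, passed 0.05 in these same fits (limma adjusted p = 0.0177, 0.0015 and 0.00268). It also passed with median-of-ratios factors or each library's exon-length trend removed (limma adjusted p = 0.0499 and 0.032). With the other pseudocounts, the other filters or the replicate block alone it did not (limma adjusted p 0.0611 to 0.0811). With each library left out in turn its log2 fold change was 0.331 to 0.498.

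*Bcl2*, the founding member of the family, gave 4.76 and 10.4 ppm in E, 6.15 and 6.27 ppm in M and 7.78 and 9.01 ppm in RE cells. The 2 E libraries bracketed all the others. Their log2 difference of 1.11 was the largest between replicates of any member at any stage. No comparison passed the test in the main fit (limma adjusted p 0.376 to 0.689). The interval in E vs. M ran from -0.96 to 0.60 on the log2 scale and so includes a fall of nearly 2-fold. Without E1 the E vs. M log2 fold change was -0.738, and without E2 it was 0.353. *Bcl2* has a long transcript, with 9157 exon bases, and E2 exceeded E1 by a median log2 of 0.38 in the 25% of genes with the most exon bases and lay at a median of -0.29 in the 25% with the fewest. In M and RE cells these medians were between -0.06 and 0.03. With each library's exon-length trend removed, a step chosen after seeing the data, E vs. M was -0.621 on the log2 scale (limma adjusted p = 0.0644). With the replicate block too it passed 0.05 (limma adjusted p = 0.0391). The M vs. RE rise passed with only the 2 groups compared or array weights (limma adjusted p = 0.0269 and 0.0431). Neither passed with other scalings, pseudocounts or filters (limma adjusted p 0.188 to 0.726). Of the exon bases of *Bcl2*, 6.09% are shared with *D630008O14Rik* on the opposite strand.

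The effectors moved in opposite directions in M cells. *Bax*, whose protein is mostly cytosolic until activated, gave 81.1 and 60.5 ppm in E, 43.0 and 41.4 ppm in M and 34.5 and 40.5 ppm in RE cells. Both E libraries were above all M and RE libraries, and M and RE cells lay close together. The log2 fold change was -0.73 in E vs. M (SE 0.18, limma adjusted p = 0.0133), -0.18 in M vs. RE (limma adjusted p = 0.49) and -0.91 in E vs. RE (SE 0.18, limma adjusted p = 0.00854).

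*Bax* therefore fell at any size in M and in RE cells relative to E cells and in neither case reached 2-fold. *Bax* has a short transcript, and removal of each library's trend on exon length, an alternative chosen after seeing the data, reduced the log2 fold change to -0.29 in E vs. M (limma adjusted p = 0.0807, range over alternatives 7.97e-06 to 0.0977) and to -0.46 in E vs. RE. The E vs. M change also missed 0.05 without M1 or M2 (limma adjusted p = 0.0806 and 0.0977), and the E vs. RE change without RE1 (limma adjusted p = 0.106). *Bax* shares 12.2% of its exon bases with *Gm45808* on the same strand.

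*Bak1*, whose protein resides in the mitochondrial outer membrane, gave 51.6 and 49.2 ppm in E, 96.1 and 91.4 ppm in M and 38.9 and 50.4 ppm in RE cells. The M libraries stood alone, at nearly double the level of the other 4, and E and RE cells overlapped. The log2 fold change was 0.89 in E vs. M (SE 0.16, limma adjusted p = 0.00354), -1.08 in M vs. RE (SE 0.16, limma adjusted p = 0.00192) and -0.19 in E vs. RE (95% CI -0.55 to 0.18, limma adjusted p = 0.394). The rise was thus under the 2-fold limit and the later fall over it. With each library's exon-length trend removed, an alternative chosen after seeing the data, the rise was 1.04 and passed both thresholds.

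The fall of *Bak1* in RE cells was not called without M1, M2 or RE1 (log2 fold changes -1.04, -1.12 and -0.89, limma adjusted p 0.0239 to 0.032), and was under 2-fold when library totals replaced TMM (-0.88). In GENCODE M21, 25.5% of the exon bases of *Bak1* are shared with exons of *Ggnbp1* on the opposite strand, and whether counting used strand is not given in the sources used here. *Ggnbp1* went the other way, with 15621 and 14889 bases in E, 2079 and 3415 in M and 10941 and 8830 in RE cells, beside 200529 and 188293 bases of *Bak1* in the M libraries. How reads in the shared part were assigned was not tested.

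**Figure D2:**
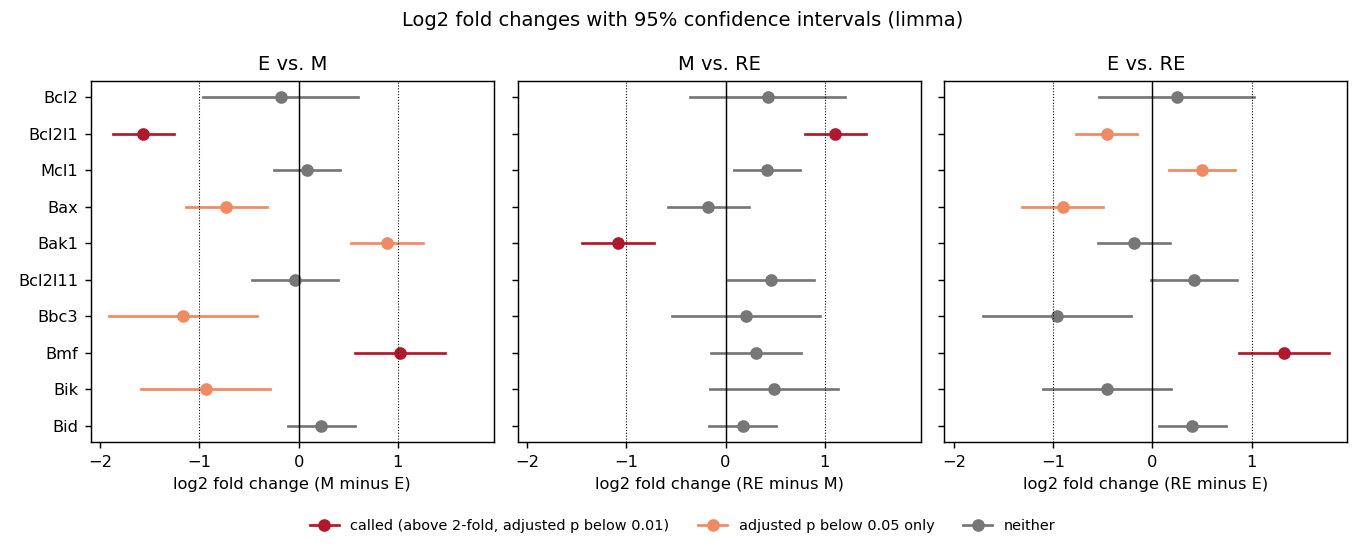
Log2 fold changes with 95% confidence intervals from limma for the 10 genes, 1 panel per comparison, with dotted lines at 2-fold; dark red marks DEGs, orange an adjusted p below 0.05 only and grey neither. *Bcl2l1* and *Bak1* lie on opposite sides of 0 in E vs. M (-1.57 and 0.89) and again, with the sides exchanged, in M vs. RE (1.11 and -1.08).

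Among the BH3-only genes, *Bmf* was the one DEG. Its protein is held at the actomyosin cytoskeleton through dynein light chain and is known for cell death on loss of matrix contact. Normalized coverage was 2.79 and 3.04 ppm in E, 5.56 and 6.50 ppm in M and 8.07 and 6.90 ppm in RE cells. Both E libraries were below all others, and each RE library was above both M libraries.

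The log2 fold change of *Bmf* was 1.02 in E vs. M (SE 0.20, limma adjusted p = 0.00514), 0.31 in M vs. RE (95% CI -0.15 to 0.76, limma adjusted p = 0.273) and 1.33 in E vs. RE (SE 0.20, limma adjusted p = 0.00312). Withdrawal of TGFβ1 for 4 days was accompanied by no fall of *Bmf* that the test could detect. The E vs. M call lay close to both thresholds: it was lost in 12 of 17 alternatives, where the log2 fold change was 0.73 to 1.13, and among the libraries it held without E2 (1.06) and not without E1, M1, M2, RE1 or RE2. The E vs. RE log2 fold change was 1.11 to 1.44 in all 17 alternatives. Its limma adjusted p was, however, over 0.01 without M1, M2, RE1 or RE2, and was 0.0157 with only the 2 groups compared.

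*Bbc3* encodes Puma, a BH3-only protein induced by p53. It gave 6.53 and 7.90 ppm in E, 2.77 and 3.58 ppm in M and 2.62 and 5.05 ppm in RE cells. Both E libraries were highest, and the 2 RE libraries bracketed those of M cells. The log2 fold change was -1.17 in E vs. M (SE 0.32, limma adjusted p = 0.0226), past 2-fold but not past the 0.01 threshold, and -0.96 in E vs. RE (limma adjusted p = 0.0569).

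The E vs. M fall of *Bbc3* passed both thresholds without E1 or E2 (log2 fold changes -1.301 and -1.052). In those fits the E replicates, which differed most over all genes, did not enter the spread, and DEGs over all genes were more numerous too. The fall did not reach 0.05 without M1 or M2 (-0.987 and -1.346), nor with array weights (limma adjusted p = 0.0797). In M vs. RE its log2 fold change was 0.21 (95% CI -0.54 to 0.95, limma adjusted p = 0.667), and without RE2 it turned to -0.26. The difference of 0.92 between the RE libraries on the log2 scale was the largest of any member in that stage.

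*Bik*, whose protein acts at the endoplasmic reticulum, was the member with the lowest coverage, at 2.87 and 2.04 ppm in E, 1.28 and 1.15 ppm in M and 2.04 and 1.48 ppm in RE cells. M libraries were lowest throughout, and E and RE cells overlapped. The log2 fold change was -0.94 in E vs. M (SE 0.28, limma adjusted p = 0.0298), 0.49 in M vs. RE (limma adjusted p = 0.224) and -0.45 in E vs. RE (limma adjusted p = 0.247). The E vs. M fall did not pass 0.05 without E1, M1, M2 or RE1 (limma adjusted p 0.0506 to 0.151) and was -0.65 with the exon-length trend removed (limma adjusted p = 0.0717, range over alternatives 0.00241 to 0.151).

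*Bcl2l11* encodes Bim, which binds every pro-survival member and can activate Bax and Bak. Normalized coverage was 4.10 and 4.78 ppm in E, 4.35 and 4.26 ppm in M and 5.82 and 6.09 ppm in RE cells. Both RE libraries were highest, but the log2 fold changes of 0.46 in M vs. RE (95% CI 0.03 to 0.89, limma adjusted p = 0.1) and 0.42 in E vs. RE (limma adjusted p = 0.124) did not pass the test. In E vs. M it was -0.04, with an interval of -0.47 to 0.39, which leaves out a 2-fold change in either direction. With the exon-length trend removed, the log2 fold change was -0.39 in E vs. M and 0.07 in E vs. RE (limma adjusted p = 0.108 and 0.782).

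*Bid*, the BH3-only protein that caspase-8 cleaves to link death receptors to mitochondria, gave 58.0 and 72.4 ppm in E, 75.5 and 76.4 ppm in M and 87.4 and 84.0 ppm in RE cells. The stages were in the order E, M, RE with no overlap, yet no comparison passed, with log2 fold changes of 0.23 from E to M, 0.17 from M to RE and 0.40 from E to RE (limma adjusted p = 0.241, 0.407 and 0.0727). With the exon-length trend removed, an alternative chosen after seeing the data, the change from E to RE was 0.58 (limma adjusted p = 0.0311). Of its exon bases, 17.7% are shared with *Bcl2l13* on the opposite strand, which held 74126 to 131073 bases per library.

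Ratios of members within a library do not depend on how libraries were scaled. *Bak1* to *Bax* coverage was 0.637 and 0.814 in the E libraries, 2.23 and 2.21 in the M libraries and 1.13 and 1.24 in the RE libraries. *Bax* thus had more coverage than *Bak1* in E cells only, and in RE cells the ratio lay between the other stages without touching either. On average it was 3.09-fold higher in M than in E cells.

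*Bak1* to *Bcl2l1* coverage, which sets an effector beside a pro-survival gene whose protein restrains it, was 0.686 and 0.682 in E, 3.75 and 3.80 in M and 0.764 and 0.894 in RE cells. The M libraries were 5.51-fold above E and 4.57-fold above RE cells on average, whereas E and RE cells were close together but did not overlap. *Mcl1* to *Bcl2l1* coverage was 0.878 and 0.770 in E, 2.54 and 2.63 in M and 1.59 and 1.61 in RE cells. Here the RE libraries stayed well above those of E cells. These ratios are descriptions without a test, and are of coverage, not of molecules.

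**Figure D3:**
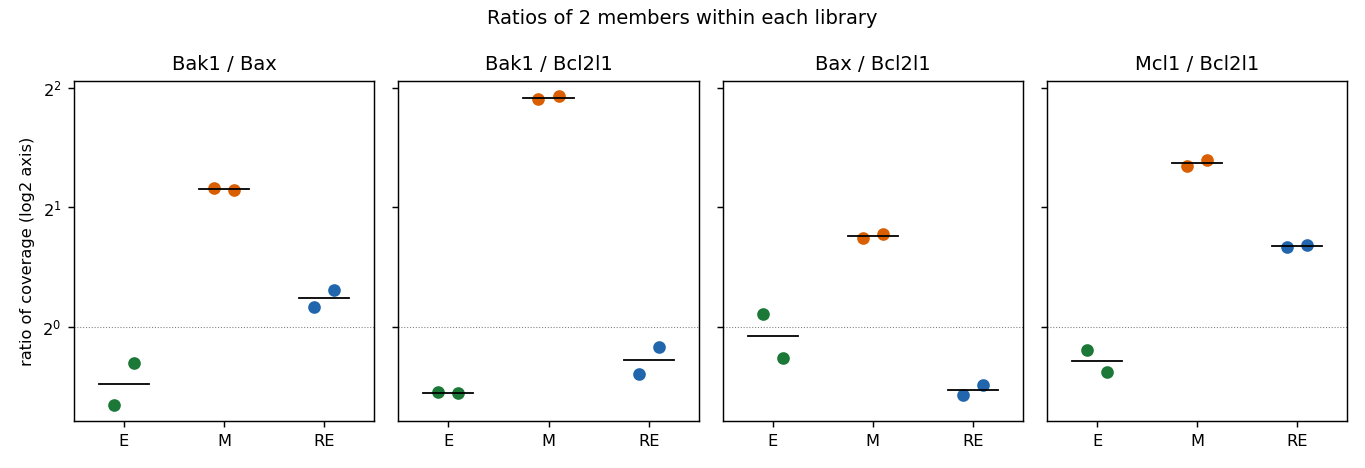
Ratio of the normalized coverage of a pair of members within each library on a log2 axis, for *Bak1*/*Bax*, *Bak1*/*Bcl2l1*, *Bax*/*Bcl2l1* and *Mcl1*/*Bcl2l1*; points are libraries, lines their geometric means and the dotted line equal coverage. All 4 ratios are highest in both M libraries, and *Mcl1*/*Bcl2l1* in RE cells (1.59 and 1.61) lies between E and M cells.

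To compare members with each other, coverage was divided by exon length (ppm per kb), the union of exons in the basic set of GENCODE M21. On this scale *Bax* led at every stage, with 81.7 ± 16.8 ppm per kb (SD, n = 2) in E, 48.7 ± 1.36 in M and 43.2 ± 4.92 in RE cells. In E cells *Bid* (29.8), *Bak1* (21.1), *Bcl2l1* (19.0) and *Mcl1* (17.8 ppm per kb) followed, the last pair overlapping between libraries. In M cells *Bak1* was in second place with 39.3 ppm per kb, and *Bcl2l1* with 6.39 stood below *Mcl1* with 18.8, and no neighbours overlapped.

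In RE cells *Bid* (39.1 ppm per kb) overlapped *Bax*, and *Mcl1* (25.1), *Bak1* (18.7) and *Bcl2l1* (13.8 ppm per kb) followed without overlap. The most covered pro-survival gene per length was therefore *Mcl1* in M and RE cells, whereas in E cells *Mcl1* and *Bcl2l1* could not be ordered. The remaining 5 genes stayed under 4 ppm per kb on average at each stage. *Bmf* was last in E cells with 0.603 ppm per kb, overlapping *Bcl2l11*, and was above *Bik*, *Bcl2* and *Bcl2l11* in M (1.25) and RE cells (1.55 ppm per kb).

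The place of *Bax* depends on the length used. In the basic set its exons cover 0.867 kb, and with all annotated exons 1.576 kb. With all exons, an alternative chosen after seeing the data, *Bax* led in E cells (44.9 ppm per kb), came after *Bak1* in M cells (26.8 against 39.0) and overlapped *Mcl1* and *Bid* in RE cells (23.8 against 25.1 and 24.1). *Mcl1* stayed above *Bcl2l1* in M (18.8 against 5.42) and RE cells (25.1 against 11.7), and both overlapped in E cells.

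Summed per length by role, the effectors gave 115 and 90.4 ppm per kb in E, 89.9 and 86.0 in M and 56.1 and 67.8 in RE cells. RE cells were lowest, with all exons too (38.0 and 46.6 ppm per kb, against 58.9 or more in each E and M library). The pro-survival genes summed to 39.2 and 36.0 ppm per kb in E, 26.4 and 25.4 in M and 37.6 and 42.0 in RE cells. M cells were lowest, and E and RE cells overlapped although this sum was made up differently. To it *Bcl2l1* gave 19.0 ppm per kb in E and 13.8 in RE cells, and *Mcl1* 17.8 in E and 25.1 in RE cells. The BH3-only genes averaged 36.7, 39.1 and 44.9 ppm per kb in E, M and RE cells, of which *Bid* made up 29.8, 34.7 and 39.1.

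**Figure D4:**
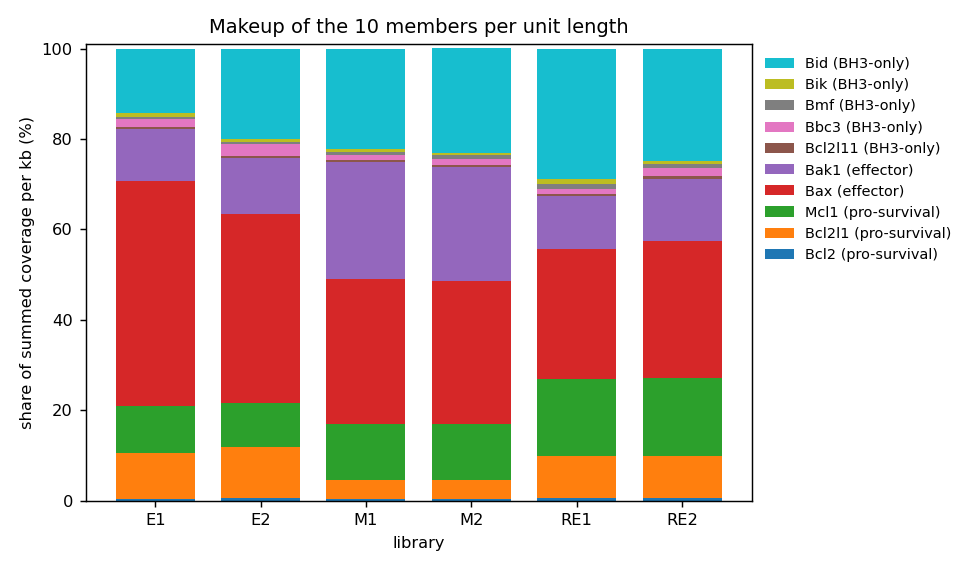
Share (%) of each of the 10 genes in their summed coverage per kb of the basic exon set, 1 bar per library from 0 to 100%. *Bax* takes 45.9% on average in E and 31.8% in M cells, *Bak1* 12.0% in E and 25.7% in M cells, and *Bcl2l1* 10.7% in E and 4.18% in M cells.

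Genes with a pattern most like that of the 3 DEGs were sought by Euclidean distance between centred log2 values over the 6 libraries, without a test. For *Bcl2l1* they were *A930005H10Rik* (distance 0.221) and *Il34* (0.229). For *Bak1* they were *Agpat4* (0.182) and *Ccnyl1* (0.198), and for *Bmf* they were *Phip* (0.154) and *Ubr3* (0.198). *Il34*, the better covered of the pair nearest to *Bcl2l1*, gave 35.9 and 38.0 ppm in E, 13.4 and 12.9 ppm in M and 30.1 and 31.1 ppm in RE cells, so that it too was lowest in M cells.

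RefSeq promoter windows (GRCm38.p6), of which the 250 bases before each start were searched on both strands, were found for 9 of the 10 genes, with 16 windows in all, and *Bik* was not among them. The GC box GGGCGG was in 9 of the 16, those of *Bax*, *Bbc3*, *Bcl2*, *Bcl2l11*, *Bid* and *Mcl1*, and in 32.7% of 32851 mouse windows. None of the windows of *Bcl2l1*, *Bak1* and *Bmf* held it, which was noticed after their values were seen. The FOXO motif GTAAACA was in 1 window each of *Bbc3* and *Bcl2l11*, and in 3.17% of all windows. The E-box CAGGTG, read by Zeb and Snail factors, was in 1 window of *Bbc3* and in 17.2% of all windows. The STAT motif TTCNNNGAA, the AP-1 motif TGANTCA, the CRE TGACGTCA and the palindromic SMAD motif GTCTAGAC were in none of the 16, and in 7.02%, 6.75%, 1.55% and 0.167% of all windows.

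Other genes of the death pathways were counted in the same fit, and the shares of all genes given above for each comparison and direction are the background of these counts. Of 16 further Bcl2 relatives, 10 were tested, and in E vs. M 1 was a DEG, 3 rose and 2 fell at any size. In M vs. RE 1 was a DEG, 1 rose and 2 fell at any size, and in E vs. RE 1 was a DEG and 2 fell. The DEG of the first and second of these was *Bok*, which encodes an effector-like protein related to Bax and Bak, at 1.03 and 0.889 ppm in E, 4.33 and 4.37 ppm in M and 1.51 and 1.61 ppm in RE cells. Like *Bak1*, *Bok* was highest in both M libraries, with log2 fold changes of 2.07 in E vs. M (limma adjusted p = 0.000383) and -1.42 in M vs. RE (limma adjusted p = 0.00265). *Bcl2l15* was the DEG in E vs. RE, with a log2 fold change of -1.90 (limma adjusted p = 0.00833) between means of only 0.695 and 0.110 ppm.

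Of the 17 genes of the mitochondrial death pathway downstream, which include the apoptosome and the effector caspases, none was a DEG in any comparison by limma. At any size 3 rose and 1 fell in E vs. M, 2 fell in M vs. RE and 1 rose in E vs. RE. *Apaf1*, the scaffold of the apoptosome, was picked here after its values were seen, and like *Bak1* it rose in M cells (log2 fold change 0.62, limma adjusted p = 0.0136) and fell in RE cells (-0.82, limma adjusted p = 0.00525). At an unadjusted p below 0.05, 7 of the 17 differed in E vs. M (5 higher), 4 in M vs. RE (none higher) and 3 in E vs. RE (2 higher). Of all genes, 50.9% did so in E vs. M (25.9% higher and 25.1% lower), 42.7% in M vs. RE (22% higher and 20.7% lower) and 43.5% between E and RE cells, where 23.7% were higher in RE and 19.7% lower. The median log2 fold change of the list was 0.23 from E to M, -0.21 from M to RE and -0.17 from E to RE.

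Inhibitor of apoptosis proteins bind caspases or the complexes that activate them. Of 8 tested, 2 were DEGs higher in M than in E cells (against 8.58% of all genes), 1 higher in RE than in M (8.08%) and 2 higher in RE than in E cells (6.2%), and none was a DEG in the lower direction by limma. At any size 4 rose and 2 fell from E to M, 2 rose and 1 fell from M to RE, and 5 rose and none fell from E to RE, and at an unadjusted p below 0.05 the lower genes numbered 2, 1 and 1. *Xiap*, a direct caspase inhibitor, gave 11.3 and 13.6 ppm in E, 33.6 and 30.3 ppm in M and 36.6 and 30.8 ppm in RE cells. As with *Bmf*, both M and both RE libraries of *Xiap* were above E cells, with log2 fold changes of 1.35 in E vs. M (limma adjusted p = 0.000726) and 1.43 in E vs. RE (limma adjusted p = 0.00131), and with the exon-length trend removed 0.97 and 1.05. *Birc3* rose in E vs. M (1.20, limma adjusted p = 0.000494), *Naip2* in M vs. RE (1.01, limma adjusted p = 0.00278) and *Naip6* in E vs. RE (1.61, limma adjusted p = 0.00369). *Naip2* and *Naip6* are close paralogs whose reads the counting could have split.

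No gene of 11 tested in the death receptor pathway was a DEG by limma. At any size, 5 rose and 1 fell in E vs. M, 1 rose and 1 fell in M vs. RE, and 5 rose and 1 fell in E vs. RE, with medians of 0.30, 0.12 and 0.41. At an unadjusted p below 0.05, 5 were higher and 1 lower in E vs. M, 2 higher and 2 lower in M vs. RE, and 6 higher and 2 lower in E vs. RE.

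Of 20 genes in the list of p53 and genes it induces, to which *Bbc3* and *Bax* are related as targets, 1 was a DEG higher and 2 lower in E vs. M, 3 higher in M vs. RE, and 1 higher and 4 lower in E vs. RE. *Perp*, also a desmosome component, fell in M cells (log2 fold change -1.74, limma adjusted p = 6.52e-05) and rose in RE cells (1.82, limma adjusted p = 5.6e-05), as did *Btg2* (-2.11 and 1.99, limma adjusted p = 0.00044 and 0.000712). *Sesn1* rose in RE cells against both M (2.19, limma adjusted p = 0.000137) and E cells (2.21, limma adjusted p = 0.000461). *Rrm2b* rose in E vs. M (1.04, limma adjusted p = 0.00523), and *Plk2* (-1.52, limma adjusted p = 0.00089) and *Gdf15* (-2.15, limma adjusted p = 0.00788) were lower in RE than in E cells, *Gdf15* from a level of only 0.749 ppm. At any size 2 of the 20 rose and 6 fell in E vs. M, 4 rose and 8 fell in M vs. RE, and 2 rose and 8 fell in E vs. RE.

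Of 23 upstream regulators, 2 were DEGs higher and 4 lower in E vs. M, 3 higher and 1 lower in M vs. RE, and 3 higher and 2 lower in E vs. RE. At any size 8 rose and 7 fell from E to M, 3 rose and 4 fell from M to RE, and 6 rose and 4 fell from E to RE. *Stat5a*, a mammary differentiation factor known to act on *Bcl2l1*, gave 39.4 and 44.8 ppm in E, 17.1 and 17.4 ppm in M and 81.9 and 67.4 ppm in RE cells. It was lowest in M cells, as *Bcl2l1* was, but unlike *Bcl2l1* highest in RE cells, and its M vs. RE log2 fold change was 2.10 (limma adjusted p = 7.23e-05). *Bcl6*, a repressor, rose in RE cells against M (1.77, limma adjusted p = 0.000118) and E cells (1.20, limma adjusted p = 0.00144).

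*Myc* was lower in M (log2 fold change -1.83, limma adjusted p = 0.000383) and RE cells (-1.26, limma adjusted p = 0.0039) than in E cells, and so was the stress gene *Trib3* (-2.05 and -2.49, limma adjusted p = 0.000601 and 0.000706). *Ddit3*, which encodes the stress factor Chop, fell in E vs. M (-1.28, limma adjusted p = 0.00466) and rose in M vs. RE (1.53, limma adjusted p = 0.0026). Its E vs. RE difference did not pass the test (0.26, limma adjusted p = 0.44). *Usp9x*, a deubiquitinase that stabilises Mcl-1 protein, rose in E vs. M (1.40, limma adjusted p = 0.000454), and by 0.90 with the exon-length trend removed. *Mcl1* coverage itself did not pass the test in that comparison.

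**Figure D5:**
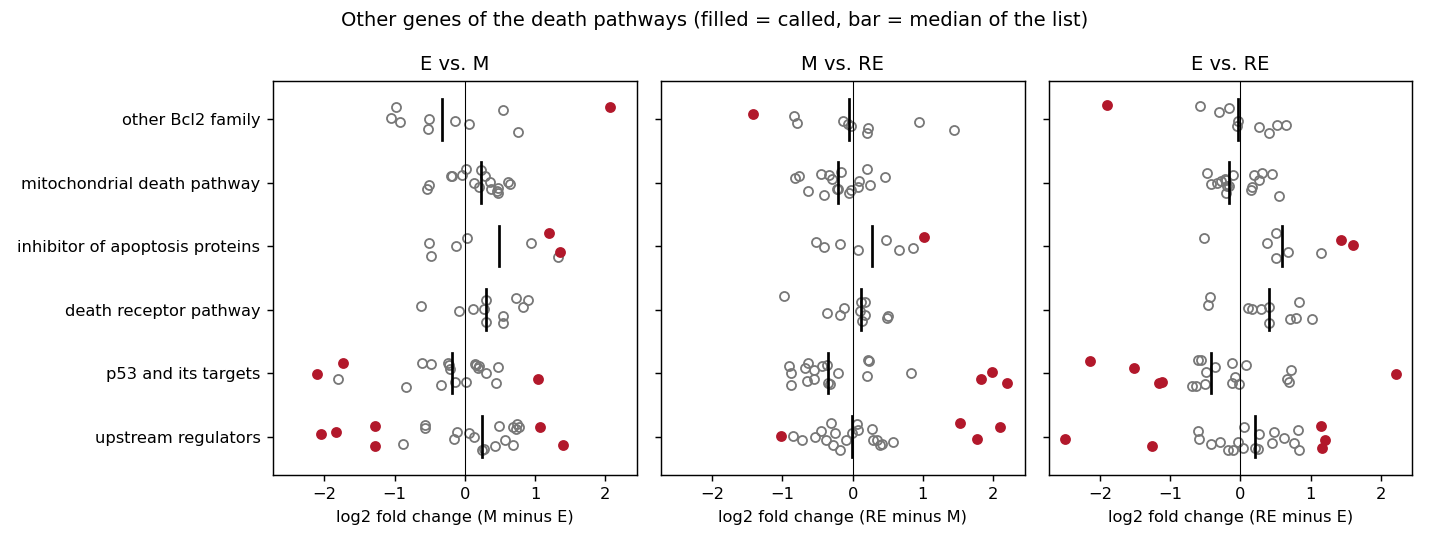
Log2 fold change of each tested gene of 6 further lists, 1 panel per comparison; points are genes, filled where they are DEGs, and bars mark the median of a list. No gene of the mitochondrial death pathway or the death receptor pathway is filled, and the points of most lists lie on both sides of 0.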

How the data were processed

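RNA of E, M and RE stages of EpH4 was sequenced by the authors as 2 libraries per stage, and unique reads were mapped to NCBI-m37 with Bowtie and TopHat2. Tool versions, the summing step and the annotation and strand setting used in it are not given in the sources used here. The deposited table holds coverage (signal), sequenced bases summed per gene: 44.8% to 48.4% of the low values per library are multiples of the read length of 50 bases. The labels speak of 3 biological replicas and the study's methods of 2, and p-values measure only the spread between these libraries, which may be in part technical.

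Values were scaled with unweighted TMM (trimming 30% by log ratio and 5% by mean level), and genes were required to hold 500 bases or more in 2 or more libraries. limma 3.58.1 in R 4.3.3 was fitted to log2(ppm + 0.1) with all 6 libraries, group only, with a trend on mean level, because edgeR, which the authors used, needs read counts. The fit was tested on simulated data. Members and lists were chosen with earlier results of these data known. Named are all 10 members, up to 3 DEGs with the largest change per list and comparison, and the 2 nearest genes to each member that was a DEG. Of the genes listed, *Bcl2a1a*, *Bcl2a1d*, *Hrk*, *Pmaip1*, *Naip1*, *Tigar*, *Epcam* and *Lum* were not analysed here.

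Alternatives were median-of-ratios factors, library totals, other pseudocounts (0.025 and 1 ppm), other filters, 2-group fits, array weights, other thresholds, a replicate block and each library left out, where a lone library is assumed to vary like the others. Without E1 or E2 the spread therefore came from the M and RE libraries only, although the E libraries differed most from each other. Removal of each library's trend on exon length and exon lengths from all annotated exons were added after the data were seen, the former for the 81.2% of genes tested that had a length.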

Additional observations from a re-analysis of the deposited data

How the results depend on the processing

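The least covered member, *Bik*, rested on 47 to 124 reads' worth of bases per library, so depth as well as the 2 libraries per stage limits its precision. Of 968 single values recomputed, which include ratios of members, 851 stayed the same, 98 lost the DEG call, 9 gained it and 10 turned. A fold change stayed the same if it kept its direction and its side of the DEG thresholds. A ratio did so if its log2 change from E to M moved by no more than the larger SD between replicates of E or M. Of 108 counts of members, 73 stayed within 1.5 times. The cause of the changes was not tested.

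DEGs over all genes numbered 2358, 1789 and 1302 in E vs. M, M vs. RE and E vs. RE. With only the 2 groups compared they numbered 1798, 2327 and 525, and with array weights 2115, 2420 and 1222. Library totals gave 2631, 1905 and 1215. In E vs. M they numbered 1873 with a pseudocount of 1 ppm and 2192 of 17428 without the filter. In every comparison they were fewer without M1, M2, RE1 or RE2 and more without E1 or E2. The 2 DEGs among the members in E vs. M became 1 with a pseudocount of 1 ppm, without the filter, with only the 2 groups compared and with array weights. Leaving out 1 library gave 1 to 4 DEGs and 2 to 7 members changed at any size, against 6. In M vs. RE the 2 DEGs became 1 with library totals and 0 to 2 with 1 library left out. Members changed at any size there, 2, became 4 with library totals, 5 with only the 2 groups compared, 5 with array weights and 2 to 5 with 1 library left out. In E vs. RE the 1 DEG became 2 with library totals, 0 with only the 2 groups compared, 2 at a fold change of 1.5 and 0 to 2 with 1 library left out, and the 4 changed at any size became 2 with only the 2 groups compared, 2 with array weights and 0 to 8 with 1 library left out.

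None of the values that turned passed the test. With 1 library left out, E vs. M values ran from -0.738 to 0.353 for *Bcl2*, -0.065 to 0.208 for *Mcl1* and -0.146 to 0.045 for *Bcl2l11*, each turning without E2. The M vs. RE value of *Bbc3* ran from -0.255, without RE2, to 0.666, and the E vs. RE value of *Bcl2* from -0.313, without E1, to 0.805. With library totals *Mcl1* turned to -0.217 and *Bid* to -0.072 in E vs. M, and *Bax* to 0.03 in M vs. RE. *Bcl2* in E vs. RE turned to -0.176 with the length trend removed, without and with the replicate block. Library totals moved the all-gene median log2 fold change to -0.29 (E vs. M), 0.18 (M vs. RE) and -0.08 (E vs. RE), and the share of DEGs that were higher from 50.6% to 30.5%, from 62.8% to 73.8% and from 66.2% to 57.1%. With them *Bax* was also a DEG in E vs. M (-1.03) and E vs. RE.

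Deviations of same-numbered libraries correlated at 0.267 between E and M, 0.058 between E and RE and 0.116 between M and RE. These values cannot settle whether the replicate numbers pair the libraries, which was not tested. With the replicate block, *Bbc3* became a DEG in E vs. M (log2 fold change -1.17), and DEGs over all genes numbered 2431, 1830 and 1284 in E vs. M, M vs. RE and E vs. RE, against 2358, 1789 and 1302.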
